A study of Mus musculus with 22 samples.

Results

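Ribosome-bound mRNA of inhibitory interneurons of the hippocampus was compared with that of layer V projection neurons of the cortex. The libraries were chosen by their cell type and batch labels. They were the 3 interneuron libraries, all of batch 2, and the 3 layer V libraries of batch 1, so 6 of the 22 libraries of the series. A further library of layer V replicate 1, made in batch 2, served as a check and entered no mean. Every mouse carried 1 floxed RiboTag allele (Rpl22 Fl/+), from which Cre recombinase makes ribosomal protein L22 with an HA epitope tag, and tagged ribosomes were pulled from the tissue lysate with anti-HA beads. Interneurons were tagged by Dlx6a-Cre, and each library pooled the hippocampi of 2 mice, a male and a female in replicates 1 and 2 and 2 males in replicate 3. Layer V neurons were tagged by Rbp4-Cre, and replicates 1, 2 and 3 are labelled female, female and male. All mice were 6 weeks old and no treatment is given. A library therefore holds what the beads recovered from a whole region, with the driver deciding which cells were tagged. Brain region, Cre line, pooling and batch all go with cell type and cannot be told apart from it. The pair was picked because its codon use is close, so that closeness is not a finding.

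Interneurons release GABA, the main inhibitory transmitter of the forebrain, onto nearby cells. They arise in the ganglionic eminences under Dlx, Nkx2-1 and Lhx6 transcription factors, and divide into classes known by parvalbumin, somatostatin, VIP, neurogliaform or CCK markers. Layer V pyramidal neurons release glutamate, send axons to distant targets such as the spinal cord, thalamus and striatum, and depend on Fezf2 and Bcl11b for that identity.

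Total estimated counts ran from 45944013 to 59763961 in the interneuron libraries and from 53999691 to 65977155 in the layer V libraries, and the batch 2 layer V library held 95772158. Counts of all transcripts of a gene were summed, and levels are given as CPM (counts scaled to the normalized library size). Levels in other cell types of the series come from all 22 libraries scaled together. Pearson's r over log2 CPM was 0.991 to 0.993 among interneuron libraries, 0.993 to 0.994 among layer V libraries and 0.913 to 0.916 between the groups. The 2 libraries of layer V replicate 1 had r = 0.996, and 15 of 17678 genes were over 2-fold apart in them. That replicate is labelled female in batch 1 and male in batch 2, while Xist, the RNA of the inactive X chromosome, stood at 13.6 and 13.0 CPM and the Y-linked Ddx3y at 0.155 and 0.0440 CPM. The batch 2 library was used without its sex label. Rpl22, the gene that carries the tag, stood at 45.8, 46.5 and 49.5 CPM in interneurons and at 54.2, 56.2 and 55.1 CPM in layer V neurons.

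Of 17678 genes tested, 2502 (14.2%) were at least 2-fold higher in interneurons and 2256 (12.8%) higher by at least 2-fold in layer V neurons, at an adjusted p of at most 0.05 by edgeR's quasi-likelihood test. Below, a gene is called higher in a cell type only when it met both limits, and differences are log2 fold changes of interneurons over layer V neurons with their standard error. Without the fold limit 6413 genes (36.3%) passed upward and 6265 (35.4%) downward, and the median over all genes was 0.02. Interneurons took 52.6% of the calls at 2-fold. Counts of called list members given below are to be read beside the shares over all genes, 14.2% and 12.8%. No list was tested as a set. TPM divides by transcript length, and it was tested by limma without the library size normalization used for CPM. On that scale interneurons took 68.5% of the calls with a pseudocount of 0.1 and 68.2% with 1. The median of all genes moved up to 0.33 and 0.25. That shift of the median was upward, so negative differences smaller than it have no settled direction. Positive differences smaller than it have no settled size. When the interneurons were set against the batch 2 layer V library alone, 2171 of the 2502 and 2002 of the 2256 genes were called again, and 5 and 3 had the other sign. That fit has 1 layer V library, so its spread comes from the interneuron libraries alone. It uses the same interneuron libraries and a second library of layer V replicate 1, so it is not an independent repeat.

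**Figure D1:**
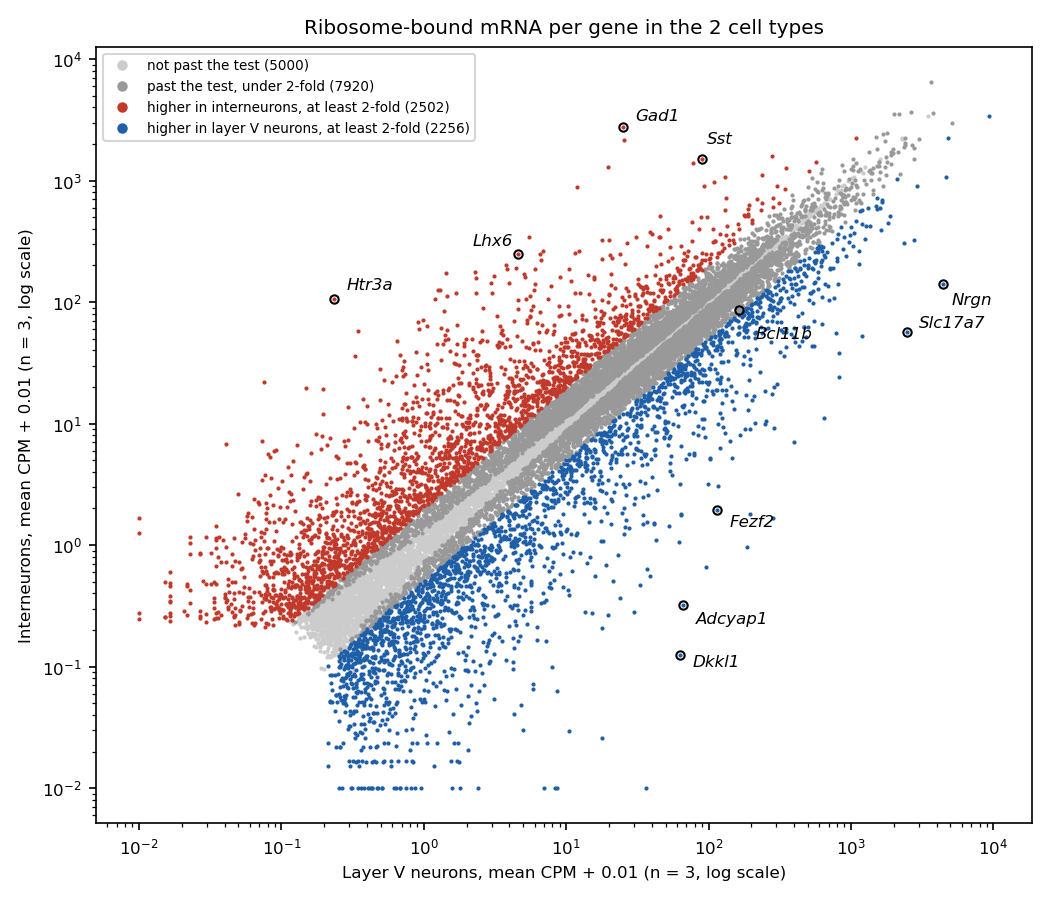
Mean CPM of each tested gene in interneurons (vertical) and layer V neurons (horizontal), 3 libraries each, both axes on a log scale with 0.01 added. Gad1 (2746 against 25.0 CPM) and Htr3a lie far above the diagonal, Slc17a7 and Dkkl1 far below it, and Bcl11b (86.4 against 163 CPM) lies near it.

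Genes of GABA synthesis and transport were higher in interneurons. All 5 listed were called, with a median difference of 6.22. Gad1 (ENSMUSG00000070880.10, chr2:70553072-70602014, GRCm38), which makes GABA from glutamate, stood at 2777, 2749 and 2712 CPM in interneuron replicates 1, 2 and 3 and at 28.0, 23.9 and 23.1 CPM in layer V replicates 1, 2 and 3. The lowest interneuron library was thus far above the highest layer V library, and the difference was 6.78 ± 0.06 (adjusted p = 5.3e-12). The batch 2 layer V library had 28.2 CPM. Levels of a gene in a pull-down cannot tell fewer cells with the gene from less of its RNA per cell. Gad2, the synaptic form of the same enzyme, differed by 6.04 and the vesicular GABA transporter Slc32a1 by 6.22. Abat, which breaks GABA down, was present in layer V neurons at 107 to 111 CPM and in interneurons at 958 to 1009 CPM, a difference of 3.16. Per length, Gad1 stood at 2029 ± 52.9 TPM in interneurons (SD, n = 3), above Gad2 with 570 ± 29.0 TPM and Slc32a1 with 535 ± 9.65 TPM. The means of the last 2 lay within 1 SD of Gad2 plus that of Slc32a1.

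Glutamatergic projection neuron genes went the other way. All 10 listed were higher in layer V neurons, with a median of -5.20. Slc17a7 (ENSMUSG00000070570.5, chr7:45163949-45176142), the vesicular glutamate transporter VGLUT1, stood at 53.7, 54.3 and 62.2 CPM in the interneuron libraries and at 2527, 2459 and 2420 CPM in the layer V libraries (-5.44 ± 0.05, adjusted p = 5.8e-12). The second vesicular glutamate transporter, Slc17a6, was at 0.194 to 0.590 CPM in interneurons and 22.8 to 24.7 CPM in layer V neurons. The transcription factors Tbr1 and Emx1 differed by -6.78 and -5.89. Camk2a, the alpha subunit of the kinase of excitatory synapses, was the least divided: 1232, 1115 and 846 CPM in interneurons against 4699, 4681 and 4658 CPM in layer V neurons. Its level in interneurons was lowest in replicate 3, and no library of either group reached the other.

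Transcription factors of interneuron development and identity formed the next set. Of 17 listed, 15 were higher in interneurons, the other 2 passed under 2-fold, and the median was 5.63. Lhx6, which specifies interneurons of the medial ganglionic eminence, stood at 244, 246 and 251 CPM in interneurons and at 4.52, 4.93 and 4.39 CPM in layer V neurons (5.74 ± 0.05, adjusted p = 3.3e-12). Every interneuron library lay far above every layer V library. Nkx2-1, which acts upstream of Lhx6 in the embryo, was low in interneurons at 6.26, 8.08 and 7.13 CPM and close to 0 in layer V neurons at 0.0194, 0.111 and 0.0580 CPM. The Dlx family was higher throughout: Dlx2 by 6.20, Dlx5 by 6.04, Dlx1 by 5.43 and Dlx6 by 5.35, with the noncoding RNA Dlx6os1 at 6.66. Dlx6os1 lies opposite Dlx6, and since the strand setting of the counting is not given in the sources used here, reads of the pair may be mixed. Sp8 and Sp9, zinc-finger factors of the ganglionic eminences, differed by 6.66 and 6.29. Prox1 and Npas1, known from interneurons of the caudal ganglionic eminence, differed by 4.61 and 5.68, and Sox6 and Maf, known from those of the medial eminence, by 4.70 and 4.94. Markers of both origins were therefore present, though the listed genes are not limited to interneurons. With all 22 libraries scaled together the 17 summed to 1739 to 1818 CPM in interneurons and 204 to 213 CPM in layer V neurons. In dentate granule cells, from the same region, the sum was 611 to 695 CPM, and in microglia 1122 to 1240 CPM. Nr2f2 (67.9, 83.1 and 75.0 against 43.1, 38.4 and 48.8 CPM) and Satb1 (198 to 225 against 147 to 152 CPM) were the members under 2-fold, with values of 0.80 and 0.47.

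The promoters of 3 genes that mark the sides of the comparison are shown with the motifs a search found in them. Each is the 300-base window of RefSeq (GRCm38.p6) from 250 bases before the start to 50 after it, read 5′ to 3′ on the gene's strand: Gad1 at chr2:70561879-70562178 (plus strand), Tbr1 at chr2:61804203-61804502 (plus strand) and Sst at chr16:23890795-23891094 (minus strand). Capitals mark a match, on either strand, to TATAAA in Gad1, to the homeodomain core TAATTA in Tbr1 and to the cyclic AMP response element TGACGTCA in Sst.
Gad1: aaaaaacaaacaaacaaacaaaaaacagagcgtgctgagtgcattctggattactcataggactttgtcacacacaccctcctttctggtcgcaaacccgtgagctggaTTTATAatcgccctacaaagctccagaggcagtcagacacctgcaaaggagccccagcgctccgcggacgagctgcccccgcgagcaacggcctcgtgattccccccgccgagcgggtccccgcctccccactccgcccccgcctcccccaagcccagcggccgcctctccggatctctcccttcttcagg
Tbr1: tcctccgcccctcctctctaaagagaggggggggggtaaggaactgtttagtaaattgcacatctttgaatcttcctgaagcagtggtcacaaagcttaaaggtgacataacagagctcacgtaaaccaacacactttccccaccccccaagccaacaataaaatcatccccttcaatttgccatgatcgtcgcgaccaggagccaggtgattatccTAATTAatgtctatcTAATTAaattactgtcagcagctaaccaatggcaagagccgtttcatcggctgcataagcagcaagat
Sst: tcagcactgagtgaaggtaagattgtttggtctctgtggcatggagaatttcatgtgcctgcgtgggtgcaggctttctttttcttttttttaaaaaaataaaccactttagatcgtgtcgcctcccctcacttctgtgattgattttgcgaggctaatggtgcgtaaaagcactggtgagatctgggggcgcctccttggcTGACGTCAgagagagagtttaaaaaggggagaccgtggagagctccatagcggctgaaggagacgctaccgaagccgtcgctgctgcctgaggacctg
The Gad1 match lies on the reverse strand. TATAAA was found in 13.6% of 32851 promoters, 9.93% of the 2296 of genes called higher in interneurons and 11.1% of the 1940 of genes called higher in layer V neurons. For TAATTA the shares were 5.29%, 3.96% and 4.95%, and for TGACGTCA 1.79%, 2.09% and 1.65%. Another motif, the E-box CAGATG, was in 17.2%, 14.5% and 16.4% and overlaps none of the others in its letters.

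Layer V markers were divided. Of 13 listed, 10 were higher in layer V neurons, 2 passed under 2-fold, 1 did not pass, and the median was -2.48. Fezf2, the selector gene of subcortical projection neurons, stood at 2.08, 1.43 and 2.28 CPM in interneurons and at 114, 117 and 115 CPM in layer V neurons (-5.92 ± 0.12, adjusted p = 4.4e-11). Pou3f1 differed by -4.36, the thyroid hormone binding protein Crym by -4.33, the ETS factor Etv1 by -3.75 and the cofactor Ldb2 by -2.31. Bcl11b (CTIP2, ENSMUSG00000048251.15, chr12:107910403-108003602), a common marker of layer V neurons, was under 2-fold apart. Its levels were 81.3, 82.0 and 96.0 CPM in interneurons and 168, 159 and 162 CPM in layer V neurons, a difference of -0.92 ± 0.06 (adjusted p = 5.8e-07). The groups did not overlap, yet the fold was 1.89. Elsewhere in the series Bcl11b was highest in dentate gyrus granule cells, at 459 to 552 CPM when all 22 libraries were scaled together. Rbp4, the gene whose promoter drives Cre in the layer V mice, stood at 28.2, 21.8 and 40.6 CPM in interneurons and at 22.2, 23.4 and 23.0 CPM in layer V neurons, and these overlapped (0.40 ± 0.18, adjusted p = 0.072). Gad1, Fezf2 and Bcl11b thus stood on the side their labels name in all 6 libraries, and Rbp4 overlapped.

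Markers of other cortical layers fell on both sides, with 6 of 11 higher in layer V neurons and 2 higher in interneurons (median -1.48). Rorb, a nuclear receptor of layer IV, was at 1.63 to 1.97 CPM in interneurons and 63.7 to 65.1 CPM in layer V libraries, and Scnn1a, another layer IV gene, differed by -2.90. Ntsr1, a layer VI gene, was low in both, at 4.81 to 6.12 CPM in interneurons against 13.2 to 16.3 CPM in layer V libraries. Tle4 and Foxp2 did not pass. Syt6 (3.91 ± 0.08) and Cux2 (1.12 ± 0.03) were higher in interneurons. Cux2 is an upper layer marker of cortex that interneurons also express.

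The single largest differences were taken from protein-coding genes with a mean of at least 10 CPM in the higher group. In interneurons they included, in order, Htr3a, Akr1c18, Krt73, Sncg, Hapln1, Gad1, Sp8, Sox1, Pnoc, Sp9 and Vip. Htr3a (chr9:48899213-48911099), the ion channel receptor for serotonin and a marker of caudal interneurons, stood at 111, 104 and 105 CPM against 0.233, 0.285 and 0.155 CPM (8.85 ± 0.18, adjusted p = 3.6e-12). No other cell type of the series exceeded 3.02 CPM for Htr3a. Akr1c18, a hydroxysteroid dehydrogenase that inactivates progesterone, was at 21.2 to 22.8 CPM against 0.0580 to 0.0793 CPM (8.32 ± 0.26). Krt73, a keratin gene, differed by 7.43, and Sncg, gamma-synuclein, which marks a class of CCK interneurons, by 7.12. Sncg was under 1 CPM in every library of the other 4 cell types too. Sox1, an SRY-related transcription factor, was at 132, 135 and 108 CPM against 1.69, 1.38 and 0.832 CPM. The batch 2 layer V library had 0.242 CPM of Htr3a and 0.0440 CPM of Akr1c18.

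In layer V neurons they included, in order, Gm21541, Dkkl1, Adcyap1, Tbr1, Gm13306, Hkdc1, Tnnc1, Slc17a6, Fezf2, Emx1 and Myl4. Dkkl1 (chr7:45207519-45212147), a secreted relative of the Dickkopf proteins, stood at 0.156, 0.0478 and 0.144 CPM in interneurons and at 61.8, 65.7 and 60.4 CPM in layer V neurons (-9.12 ± 0.31, adjusted p = 2.2e-11). Adcyap1 (chr17:93199017-93206537), which encodes the peptide PACAP, was at 0.233, 0.335 and 0.370 against 67.0, 72.9 and 58.6 CPM (-7.71 ± 0.23). Hkdc1, a hexokinase-like protein, differed by -6.18. Tnnc1 and Myl4, troponin C and a myosin light chain best known from heart, differed by -6.17 and -5.86. Gm21541 had no count in any interneuron library and 37.4, 38.6 and 33.7 CPM in layer V libraries, which is at least 623-fold higher against a floor of 3 counts per library. Gm21541 and Gm13306 belong to a cluster of near-identical gene copies on chromosome 4, among which the counting can move reads, so both are uncertain.

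**Figure D2:**
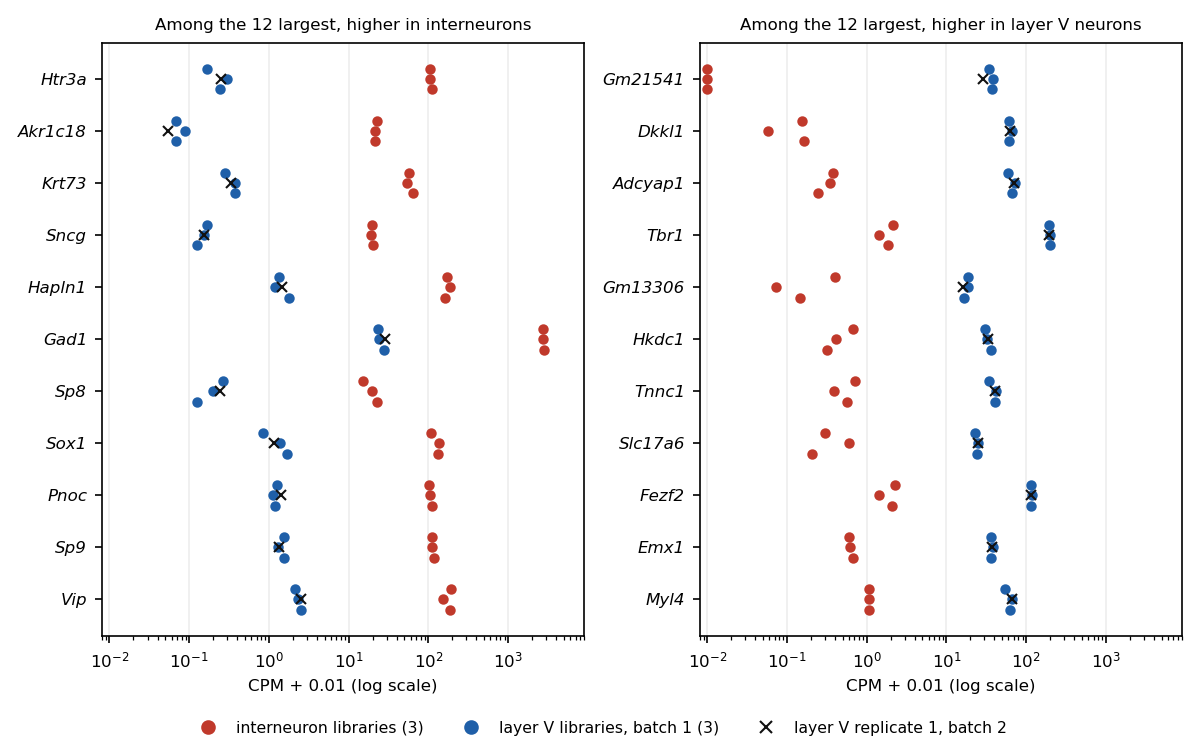
CPM (log scale, 0.01 added) of genes among the 12 largest differences in each direction, 1 point for each of the 3 interneuron and 3 layer V libraries and a cross for the batch 2 library of layer V replicate 1. The genes were chosen for groups that do not overlap, so the gap between red and blue is fixed by the choice. The cross was not used in the choice but is a second library of replicate 1, which was. It stands at 62.9 CPM for Dkkl1.

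Markers of interneuron subclasses were mostly higher in interneurons, 13 of 16 with a median of 3.45, and those of several classes were abundant together. Somatostatin, Sst (chr16:23889573-23890958), stood at 1520, 1356 and 1630 CPM in interneurons and at 96.2, 93.5 and 82.3 CPM in layer V neurons (4.05 ± 0.07, adjusted p = 1.2e-10). Parvalbumin, Pvalb, was at 250, 226 and 254 CPM against 18.2, 20.4 and 22.3 CPM (3.58 ± 0.07). Vip, of interneurons that target other interneurons, differed by 6.26 and Ndnf, of neurogliaform cells, by 5.71. Reln, of neurogliaform and some dendrite-targeting cells, was at 294 to 311 CPM against 25.4 to 28.7 CPM. Cnr1, the cannabinoid receptor of CCK basket cells, was at 1054 to 1119 CPM against 125 to 134 CPM (3.05 ± 0.04). Calretinin, Calb2, differed by 2.35 and the nitric oxide synthase Nos1 by 1.91. The exceptions were Cck and Lamp5. Cck, although it names a class of interneurons, was at 335, 313 and 337 CPM in interneurons and 824, 828 and 748 CPM in layer V neurons (-1.28 ± 0.05). Lamp5 was at 146 to 151 against 298 to 322 CPM (-1.05 ± 0.04). Id2 passed under 2-fold at 0.20, a positive value smaller than the TPM shift, so its size is not settled.

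Among 13 neuropeptide genes, 9 were higher in interneurons, 2 in layer V neurons and 2 did not pass (median 3.55). Per length, the order of levels in interneurons began with Sst at 5301 ± 488 TPM, Npy at 1817 ± 123 TPM and Cck at 1246 ± 38.9 TPM (SD, n = 3), which did not overlap. Vip followed at 347 ± 41.6 TPM, then Penk at 260 ± 146 TPM and Tac1 at 214 ± 34.5 TPM, and Penk overlapped both neighbours. In layer V neurons Cck led with 2490 ± 141 TPM and Sst had 256 ± 21.9 TPM. Pnoc, the precursor of nociceptin, was at 111, 106 and 101 CPM in interneurons and 1.18, 1.13 and 1.24 CPM in layer V neurons (6.48 ± 0.08). Tac2 and Tac1, precursors of neurokinin B and substance P, differed by 5.12 and 4.21. Npy differed by 4.17, Cort by 3.55 and Crh, corticotropin-releasing hormone, by 3.36. Adcyap1 and Cck were the 2 higher in layer V neurons. Penk, proenkephalin, stood at 91.6, 80.2 and 206 CPM in interneurons against 44.2 to 46.4 CPM, and its value of 1.47 fell to 0.93 and out of the call without interneuron replicate 3. Pdyn, prodynorphin, was likewise highest in replicate 3 at 27.5 CPM, with 9.06 and 8.70 CPM in the others (0.77 ± 0.39, adjusted p = 0.10).

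Sst and Cort encode precursors with like peptides at their ends. The last 12 codons of the Sst coding sequence (codons 105 to 116 of 116) and the matching codons of Cort (97 to 108 of 109), from the GENCODE M21 transcripts, are set side by side, with codons that differ in capitals.
Sst: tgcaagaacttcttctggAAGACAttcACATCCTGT
Cort: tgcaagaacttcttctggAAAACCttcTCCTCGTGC
Of these 36 bases 6 differ, in 5 codons. Per length, Cort was the lower of the 2 in interneurons, at 93.8 TPM against 5301 TPM for Sst. Cort stood at 26.9, 23.8 and 27.6 CPM in interneurons against 2.36, 2.35 and 1.95 CPM in layer V neurons, and the groups did not overlap.

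Receptors for these peptides were called in both directions, with 7 of 18 higher in interneurons, 5 higher in layer V neurons and a median of -0.05. The mu opioid receptor Oprm1 was at 4.27 to 4.94 CPM in interneurons and 0.290 to 0.428 CPM in layer V neurons (3.60 ± 0.18). The delta receptor Oprd1 was at 73.7 to 84.2 CPM against 11.8 to 14.3 CPM (2.61 ± 0.07). The VIP receptors went opposite ways, Vipr2 at 1.98 to 2.45 CPM in interneurons against 0.116 to 0.252 CPM and Vipr1 lower by a difference of -3.79. Vipr1 stood at 1.89, 2.07 and 2.51 CPM in interneurons against 32.7, 29.4 and 27.1 CPM in layer V neurons. The substance P receptor Tacr1 differed by 3.14 and Adcyap1r1, a receptor of PACAP, by 1.87. The PACAP gene Adcyap1 itself was higher in layer V neurons. Somatostatin receptors Sstr2 and Sstr3 were higher in layer V neurons (-1.91 and -2.50), as were Crhr1 (-3.46) and the CCK receptor Cckbr (-2.26). Sstr1, at 15.4 to 16.9 CPM in interneurons and 15.8 to 16.9 CPM in layer V neurons, did not pass (-0.03 ± 0.06).

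Potassium channel genes moved both ways in equal number. Of 25, 7 were higher in interneurons and 7 in layer V neurons (median -0.01). The Kv3 subunits that speed repolarization in fast-spiking cells divided within the family. Kcnc1 stood at 936, 877 and 881 CPM in interneurons and at 97.0, 89.9 and 90.4 CPM in layer V neurons (3.28 ± 0.04, adjusted p = 1.4e-11). Kcnc2 differed by 3.47, while Kcnc4 was higher in layer V neurons at 128 to 136 CPM against 63.4 to 64.3 CPM (-1.06 ± 0.04). Per length, Kcnc1 reached 404 ± 2.58 TPM and Kcnc4 29.7 ± 1.08 TPM in interneurons, against 24.9 ± 0.891 and 50.6 ± 0.928 TPM in layer V neurons. The calcium-binding Kv4 partners split too, Kcnip1 by 4.51 and Kcnip3 and Kcnip4 by -3.83 and -2.19. Kcnip3 was at 20.8 to 21.4 CPM in interneurons and 295 to 304 CPM in layer V neurons. The M-current subunits Kcnq3 and Kcnq5 (-1.08 and -1.47) and the erg channel Kcnh7 (-1.97) were higher in layer V neurons. Kcna1 had 1.03 and dropped below 2-fold without interneuron replicate 2 or without layer V replicate 2.

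Sodium and calcium channel genes were called on both sides. Of 8 sodium channel genes, Scn1a (Nav1.1), the axonal channel of fast-spiking interneurons, was higher in interneurons at 236, 258 and 251 CPM against 101, 103 and 107 CPM (1.26 ± 0.04). The beta subunit Scn4b was higher in layer V neurons (-1.68 ± 0.23), with 39.9, 45.8 and 84.9 CPM in interneurons against 172 to 193 CPM. Scn2a, of excitatory axons, had -0.84 and Scn8a -0.22, and the median of the list was -0.12. Of 12 HCN and calcium channel genes 2 were higher on each side, among them Hcn3 (1.71) in interneurons and Cacna1e (-1.63) and Cacna1i (-1.04) in layer V neurons. Over all genes 14.2% were higher in interneurons and 12.8% in layer V neurons. The counts of these 2 channel lists lie near those shares and do not set the lists apart. Of 14 calcium-binding proteins, Pvalb, Calb2 and Necab2 were higher in interneurons and 5 in layer V neurons, among them Calm2, Hpca, Hpcal1 and Hpcal4. Calm2, a gene of calmodulin, was at 890 to 906 CPM against 2844 to 2933 CPM (-1.69 ± 0.03).

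Glutamate receptor genes changed in subunit make-up. Of 12 AMPA receptor and accessory genes, 4 were higher in interneurons and 3 in layer V neurons (median 0.51). Gria1 stood at 1666, 1643 and 1472 CPM in interneurons and at 288, 262 and 284 CPM in layer V neurons (2.52 ± 0.05, adjusted p = 2.4e-10). Gria2, whose edited subunit makes AMPA receptors impermeable to calcium, was at 277, 282 and 234 CPM against 628, 612 and 625 CPM (-1.23 ± 0.06). Per length, Gria1 exceeded Gria2 in interneurons, with 657 ± 39.8 TPM against 141 ± 14.7 TPM (SD, n = 3), and Gria2 exceeded Gria1 in layer V neurons, with 212 ± 7.26 TPM against 91.9 ± 6.01 TPM. The order of the 2 subunits was therefore opposite in the 2 cell types, in all 6 libraries. Gria4 differed by 1.74, and the accessory subunits Shisa6 (4.15), Cacng4 (1.68), Cnih3 (-2.29) and Cacng3 (-1.11) took both directions. Gria3 had -0.22 in CPM but a higher mean TPM in interneurons, so its direction is not settled.

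Of 6 NMDA receptor genes tested (Grin3b had too few counts), 2 were higher in interneurons. Grin2d (GluN2D), a subunit that gives slow receptors with little magnesium block, stood at 176, 165 and 165 CPM in interneurons and at 5.48, 4.85 and 4.84 CPM in layer V neurons (5.06 ± 0.06, adjusted p = 5.7e-12). No library of the other 4 cell types exceeded 7.96 CPM for it. Grin3a differed by 1.73. Grin2a and Grin2b passed under 2-fold at -0.48 and -0.39, and in interneurons Grin2d and Grin2b had like levels per length, 52.9 ± 0.620 and 52.9 ± 3.43 TPM. Among 14 kainate and metabotropic receptor genes 5 were higher in interneurons and 4 in layer V neurons (median 0.28). Grik1, the GluK1 subunit, was at 103 to 109 CPM against 4.86 to 5.55 CPM (4.35 ± 0.05), and Grm2, a presynaptic metabotropic receptor, at 5.38 to 6.93 CPM against 104 to 131 CPM (-4.24 ± 0.11). The kainate auxiliary subunits Neto1 and Neto2 were higher in interneurons (1.38 and 1.55). Grik2 had 1.02 and fell under 2-fold without interneuron replicate 3 or layer V replicate 1.

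GABA receptor genes also took both directions. Of 14, 4 were higher in interneurons and 1 in layer V neurons (median -0.06). Gabrb2, Gabrg1 and Gabrg3 differed by 1.61, 1.81 and 1.54. Gabra5, the extrasynaptic alpha subunit, was higher in layer V neurons at 69.9 to 72.9 CPM against 30.1 to 33.2 CPM (-1.15 ± 0.04). Of 28 acetylcholine, serotonin, dopamine and adrenergic receptor genes 12 were higher in interneurons and 2 in layer V neurons (median 0.41). Beside Htr3a, the muscarinic receptor Chrm2 (2.96), the nicotinic subunits Chrna7 (2.33) and Chrna2 (3.66) and the adrenergic Adra1a (2.12) were higher in interneurons. Chrm1, at 93.0 to 97.0 CPM against 264 to 272 CPM, and Adra1d, at 9.07 to 10.4 CPM against 60.3 to 61.1 CPM, were the 2 higher in layer V neurons.

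Synapse organizing genes were led by Erbb4. Of 21, 5 were higher in interneurons and 3 in layer V neurons (median -0.04). Erbb4, the neuregulin receptor of interneurons, stood at 311, 380 and 340 CPM in interneurons and at 5.79, 5.30 and 5.20 CPM in layer V neurons (5.99 ± 0.08, adjusted p = 2.0e-11). Its ligand Nrg1 was at 4.80 to 5.84 against 9.40 to 10.1 CPM (-0.85). Nxph1, a neurexin ligand, differed by 5.24 and Elfn1, which draws facilitating synapses onto somatostatin cells, by 3.66. The cerebellins split, Cbln4 by 2.98 and Cbln1 by -3.61, and the neurexin Nrxn3 differed by 1.36. At the inhibitory postsynapse none of 6 genes was called, with 3 passing under 2-fold and a median of 0.04. Gephyrin, Gphn, was at 66.8 to 75.0 against 66.4 to 69.4 CPM. At the excitatory postsynapse 7 of 13 were higher in layer V neurons and none in interneurons (median -1.05). Dlg4 (PSD-95) was at 637, 628 and 592 CPM against 1517, 1518 and 1480 CPM (-1.28 ± 0.03), Homer1 had -2.46, and the calmodulin-binding Nrgn had -4.96.

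Release machinery differed by paralog. Of 21 presynaptic genes 6 were higher in interneurons and 2 in layer V neurons (median 0.03). Syt2, the fast calcium sensor of parvalbumin terminals, was at 292, 283 and 285 CPM against 64.2, 62.7 and 63.7 CPM (2.17 ± 0.03). Rab3b had 2.90 and Vamp1 1.61. The vesicle proteins Sv2a and Sv2b went apart: Sv2a at 1392 to 1435 against 553 to 577 CPM (1.32 ± 0.03), and Sv2b at 22.6 to 25.7 against 811 to 843 CPM (-5.09 ± 0.05). The syntaxin Stx1a was higher in layer V neurons (-3.25 ± 0.04). Syn2 and Rab3a did not pass, at 0.04 and 0.03. Of 5 neurofilament genes Nefl (-1.64), Nefm (-1.87) and the low Prph (-4.66) were higher in layer V neurons and none in interneurons. Nefh, the heavy chain, took the other sign at 259 to 288 against 146 to 160 CPM (0.85 ± 0.05).

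**Figure D3:**
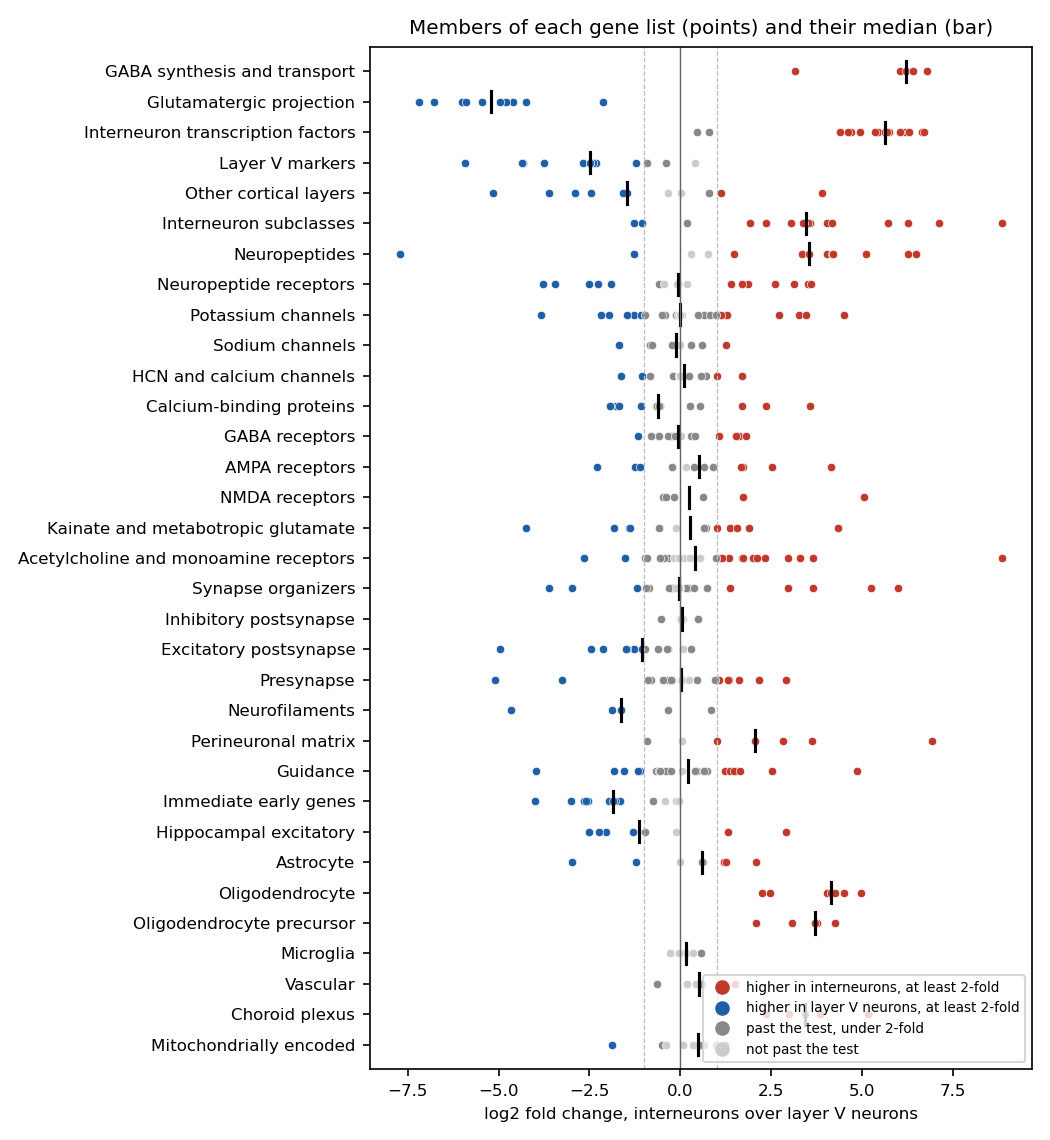
Log2 fold change (interneurons over layer V neurons, horizontal) of every tested member of 33 gene lists, with a bar at each list's median and dashed lines at 2-fold. GABA synthesis (median 6.22) and glutamatergic projection genes (median -5.20) lie on opposite sides, while channel and receptor lists spread about 0, as with potassium channels (median -0.01).

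Of 7 genes of the perineuronal matrix, the coat around parvalbumin cells, 5 were higher in interneurons (median 2.07). The 7 are not limited to neurons. Scaled with all 22 libraries they summed to 4020 to 4616 CPM in astrocytes and 608 to 664 CPM in interneurons. Hapln1, a link protein of that matrix, stood at 161, 188 and 169 CPM against 1.76, 1.17 and 1.33 CPM (6.93 ± 0.13, adjusted p = 2.8e-11), and aggrecan, Acan, was lower in level with 6.08 to 6.38 against 0.406 to 0.650 CPM. Bcan and Vcan differed by 2.07 and 2.82. Tnr, with 1.01, was under 2-fold without interneuron replicate 1 or 2 or without layer V replicate 2. Of 22 guidance genes 7 were higher in interneurons and 5 in layer V neurons (median 0.23). The chemokine receptor Cxcr4, which steers migrating interneurons, was at 9.37 to 11.1 against 0.271 to 0.407 CPM (4.87 ± 0.17), and its partner receptor Ackr3 had 1.38. The semaphorin receptor Plxnd1 stood at 5.97, 5.93 and 13.4 CPM in interneurons against 136, 128 and 128 CPM in layer V neurons (-3.97 ± 0.24), with interneuron replicate 3 above the others.

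Immediate early genes, which neurons switch on with activity, were lower in interneurons for 9 of 13, with none higher and a median of -1.85. Egr1 stood at 33.1, 83.4 and 71.2 CPM in interneurons and at 608, 493 and 400 CPM in layer V neurons (-3.00 ± 0.28, adjusted p = 9.5e-06). Egr3 was steadier within groups, at 15.4 to 20.9 against 264 to 314 CPM (-3.99 ± 0.11). Arc had -1.80, Npas4 -1.95 and Nr4a1 -1.85. Fos overlapped, with 6.07, 41.8 and 43.3 CPM in interneurons and 53.6, 40.6 and 29.0 CPM in layer V neurons (-0.43 ± 0.52, adjusted p = 0.48). Interneuron replicate 1 was lowest of its group for Fos, Egr1, Fosb, Junb and Nr4a1. Klf10, an early response factor chosen after its values were seen, was at 43.3, 46.2 and 69.1 CPM against 1025, 1090 and 1490 CPM (-4.51 ± 0.18), and the batch 2 layer V library had 483 CPM, under any batch 1 library.

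Genes of other cells were present in unequal amounts. All 8 oligodendrocyte markers were higher in interneurons (median 4.15), and their summed level was 3395 to 3590 CPM against 382 to 410 CPM in layer V neurons and 407 CPM in the batch 2 layer V library. Mag, a myelin adhesion protein, had a difference of 4.97. Elsewhere in the series, with all 22 libraries scaled together, the sum was 444 to 541 CPM in dentate granule cells, from the same region. It was 1462 to 1585 CPM in astrocytes, 3198 to 3366 CPM in interneurons and 347 to 375 CPM in layer V neurons. The 5 precursor markers, with Pdgfra and Olig2 among them, were all higher too (median 3.71, sum 140 to 162 against 11.3 to 14.2 CPM). Their part in the other differences was not tested, and genes such as Bcan and Vcan, listed above with the matrix, are also made by precursor cells. Choroid plexus markers were higher for 5 of 5 (median 3.43), with a sum of 85.8 to 136 against 1.59 to 9.26 CPM. Scaled with all 22 libraries, that sum was 80.8 to 127 CPM in interneurons. It was 85.8 to 147 CPM in dentate granule cells, from the same region. Ttr, transthyretin, was at 74.3, 117 and 74.8 CPM against 7.21, 0.365 and 0.232 CPM, and its difference of 5.15 became 8.18 without layer V replicate 1.

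Astrocyte markers took both directions, with Gfap (2.08), Aldoc (1.25) and Aqp4 (1.20) higher in interneurons and Slc1a2 (-1.23) and Aldh1l1 (-2.98) higher in layer V neurons. Their sum was 383 to 432 CPM in interneurons and 556 to 579 CPM in layer V neurons. In astrocyte libraries it was 35488 to 39968 CPM with all 22 libraries scaled together. Of 7 microglial markers none was called, 2 passed under 2-fold, and the sums were 27.4 to 29.1 and 20.0 to 22.2 CPM. Kdr (1.52) and Pdgfrb (1.11) of 6 vascular markers were higher in interneurons, Pdgfrb not without interneuron replicate 1, and the sums of 15.0 to 23.5 and 15.3 to 16.5 CPM overlapped. Markers of hippocampal excitatory neurons summed to 133 to 152 CPM in interneurons and 168 to 195 CPM in layer V neurons. In dentate granule cells the sum was 1813 to 1989 CPM with all 22 libraries scaled together. These 8 markers took both directions (median -1.14). Dsp (2.90) and Zbtb20 were higher in interneurons, and C1ql2, Plk5, Spink8 and Tdo2 (-2.52) in layer V neurons. Of 13 mitochondrially encoded genes 7 passed upward under 2-fold (median 0.49), mt-Nd5 was higher in interneurons (1.23) and mt-Nd3 in layer V neurons (-1.87).

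The interneuron libraries differed among themselves for a few genes. Replicates 1 and 2 had 33 genes over 2-fold apart, but replicate 3 had 82 and 78 against them, and layer V libraries had 13 to 29. Zic1, a zinc-finger transcription factor, stood at 81.3, 62.9 and 4.60 CPM in interneuron replicates 1, 2 and 3 and at 1.16 to 2.06 CPM in layer V neurons (5.06, adjusted p = 0.00071). Zic2 at 39.6, 27.8 and 2.28 CPM, Prkcd at 53.2, 34.6 and 4.99 CPM and Glp1r, the receptor of glucagon-like peptide 1, at 29.9, 30.3 and 2.57 CPM shared that order. Replicate 3 was low in each, and for Zic2 lay below the layer V libraries at 4.57 to 5.05 CPM. The Zic2 call of 2.29 was lost without interneuron replicate 1 (1.68, adjusted p = 0.070) or layer V replicate 1 (2.26, adjusted p = 0.054), and Prkcd went from 4.89 to 4.27 without interneuron replicate 1.

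Other genes were high in interneuron replicate 3 instead. Adora2a, an adenosine receptor, stood at 3.17, 2.18 and 26.3 CPM, Ppp1r1b (DARPP-32) at 33.3, 25.9 and 141 CPM and Rgs9 at 9.76, 8.73 and 30.3 CPM. Drd1, the dopamine D1 receptor, was likewise highest in replicate 3, at 7.15 and 6.12 CPM in the other libraries. These genes, picked after their values were seen, are best known from striatal projection neurons, and 10 such genes summed to 374, 346 and 643 CPM in the interneuron libraries and 442 to 448 CPM in layer V libraries. With 3 libraries none of Adora2a, Ppp1r1b, Rgs9 and Drd1 passed. Without interneuron replicate 3, Ppp1r1b was higher in layer V neurons by -1.82, where it had -0.67 with it. Npas4 went from -1.95 to -2.68 without replicate 3.

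**Figure D4:**
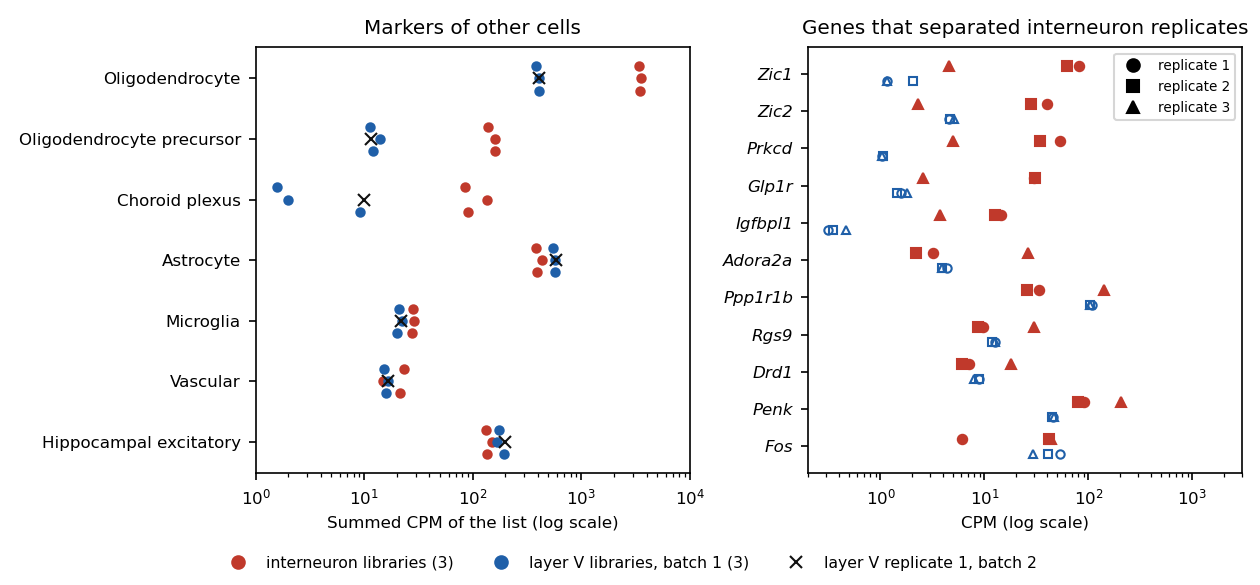
Left, summed CPM (log scale) of marker lists of other cells in the 3 interneuron and 3 layer V libraries, with a cross for the batch 2 layer V library; right, CPM of 11 genes that varied among interneuron replicates (filled red) beside the layer V libraries (open blue). Oligodendrocyte sums are 3395 to 3590 CPM in interneurons and 382 to 410 CPM in layer V neurons, and Zic1 and Adora2a separate interneuron replicate 3 from replicates 1 and 2 in opposite directions.

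Sex labels were borne out in the 6 libraries. Xist stood at 20.3, 40.9 and 0 CPM in interneurons, in which replicate 3 pooled males, and at 13.6, 15.5 and 0.0580 CPM in layer V neurons. None of 5 sex-linked genes was called with all libraries, but Ddx3y and 3 other Y-linked genes were called higher in interneurons without layer V replicate 3, the male.

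Codon use was computed as each codon's share of all codons, weighted by TPM, over 44581 transcripts with a full coding sequence. Of 61 sense codons 30 (49.2%) had a higher share in interneurons and 21 (34.4%) a higher share in layer V neurons by limma (adjusted p of at most 0.05), and 10 did not pass. All differences were small, with a median size of 0.03 and a largest of 0.09 on the log2 scale. The pair was picked for close codon use, so their small size is not a finding. ATA, for isoleucine, made up 0.575% ± 0.0105 of codons in interneurons and 0.540% ± 0.00733 in layer V neurons (SD, n = 3; 0.09 ± 0.02, adjusted p = 0.0015). Without mitochondrially encoded transcripts, which use ATA for methionine, that difference was 0.06. The leucine codons TTA and CTT had 0.09 and 0.06. At the other end lay CGC, for arginine, with 1.10% ± 0.00746 against 1.16% ± 0.00741 (-0.07), GCG (-0.06) and CGG (-0.06).

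The third base followed the direction for most codons. Of 30 codons ending in A or T, 25 were higher in interneurons, 1 in layer V neurons and 4 did not pass. Of 31 ending in G or C, 5 were higher in interneurons, 20 in layer V neurons and 6 did not pass. Codons ending in A or T summed to 39.1%, 39.4% and 39.3% in interneuron replicates 1, 2 and 3 and to 38.4%, 38.5% and 38.7% in layer V replicates 1, 2 and 3. The groups did not overlap, and the batch 2 layer V library had 38.4%. That library lay on the layer V side of every interneuron library for all 51 codons called. It is a second library of layer V replicate 1, which helped set those calls, so this is not an independent check.

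**Figure D5:**
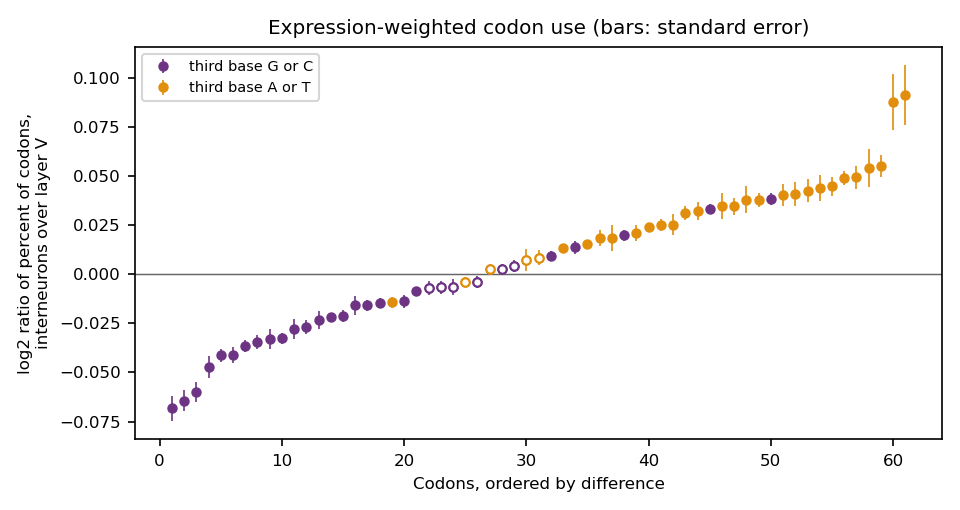
Difference of each of 61 codons (vertical, log2 ratio of its percent of all codons, interneurons over layer V neurons, with standard error), ordered by size along the horizontal axis. Filled points passed the test and open points did not, and codons ending in A or T fill the upper end, up to 0.09, while those ending in G or C fill the lower end, down to -0.07.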

How the data were processed

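The 6 libraries held ribosome-bound mRNA, read as a stranded paired-end library. Per the paper's methods and the submitters' notes, the authors removed adapters (cutadapt 3.5) and assigned reads with kallisto 0.46.2 to GENCODE M24 transcripts. The deposited files give, for each transcript, an estimated count (estimated because reads shared by transcripts are divided among them) and TPM, which the authors' tool scaled by effective transcript length and to 1 fixed total per library. Near-identical genes can therefore exchange reads. The authors' own test was sleuth, and no result of it was used. Some genes are not reported here.

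Estimated counts were summed per gene and rounded to whole numbers. edgeR 4.0.16 (R 4.3.3) fitted a quasi-likelihood model to the 6 libraries after TMM normalization and its default count filter, and p-values were adjusted by Benjamini-Hochberg over all 17678 genes. CPM use the TMM library sizes. Codon shares used deposited TPM, the coding sequences of the same versioned transcripts in GENCODE M21, and limma 3.58.1. Of 59252 protein-coding transcripts in the files 58397 had the same ID in M21, and 44581 with a full coding sequence were kept. Coordinates are those of M21 on GRCm38. Promoters came from RefSeq.

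Named genes were the 12 protein-coding genes of largest difference each way with a mean of at least 10 CPM in the higher group and no overlap of libraries, all members of the gene lists, and the 5 genes that varied most within each group. Rpl22 and Klf10 and 2 lists, of striatal genes and of genes that vary with Zic1, were added after values were seen. Members and lists were chosen with earlier results of these data known, so no list was tested as a set. On simulated counts with known changes edgeR called 96 of 100 genes at 2-fold and 100 of 100 at 4-fold. It called 8 of 17478 unchanged genes among the 17678. On 61 simulated codons limma called 10 of 10 changed and 0 of 51 unchanged. The simulated codon shift was many times the within-group SD and codons varied independently, so that outcome was close to assured. Far fewer genes were changed than passed in the real data. These counts check the steps and are not error rates of the real comparison. Alternatives were DESeq2 1.42.0, other size factors, no count filter, limma on log2 TPM, protein-coding transcripts alone, glmTreat, the batch 2 library, larger models, a replicate block and each library left out. Replicates 1, 2 and 3 share no animal between the cell types. The correlations of same-numbered libraries' deviations from their group means were -0.01, -0.04 and 0.05, so the numbers did not pair them.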

Additional observations from a re-analysis of the deposited data

How the results depend on the processing

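Counts at 2-fold were 1787 to 3321 upward and 950 to 2762 downward over all alternatives, and no named gene that was called changed sign. The 950 genes higher in layer V neurons came from limma on log2(TPM + 1), and of genes passing downward at any size TPM gave 3454 (pseudocount 0.1) and 3444 (pseudocount 1), against 6265. On those scales the median of all genes moved up, to 0.33 and 0.25. Leaving out each library in turn gave 2517 to 2602 genes higher in interneurons, 2255 to 2390 higher in layer V neurons, 6057 to 6373 and 5909 to 6180 at any size, and 29 to 31 codons upward and 20 to 24 downward. With a replicate block the counts were 2496, 2255, 6274 and 6126, the codons 31 and 22, and no called named gene was lost. DESeq2 called 2385 and 2210, glmTreat against 2-fold 1787 and 1663. Of 246 called named genes 206 lost the call under no alternative that tested them and 40 lost it under at least 1. Protein-coding transcripts alone tested 243 of the 246. Of 183 uncalled ones 54 changed sign somewhere, 37 of them on TPM. Of 68 list counts 16 moved by over 1.5 times. The cause was not tested. Beside those in the report, Sema3a lost its call without interneuron replicate 1 (-0.98), Adora2a gained one without interneuron replicate 2 (1.85) and Chrnb4 went from 3.29 to 4.54 without layer V replicate 3. With 3 libraries a group, an exact permutation test of a single value cannot go below p = 0.10.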
